A study of Chelonia mydas with 15 samples.

Results

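The genes described here encode the oxygen sensors of the cell, the hypoxia-inducible factors that the sensors control, and the proteins that connect them. Of 10 genes sought by symbol in the count table (HIF1A, EPAS1, HIF3A, ARNT, ARNT2, VHL, EGLN1, EGLN2, EGLN3 and HIF1AN), 9 were found among 23730 named genes, and all 9 had enough counts to be tested. No entry carried the name EGLN2, so that prolyl hydroxylase was not analysed here. The libraries are 15 total RNA libraries from embryos of the green sea turtle, Chelonia mydas, 5 in each of 3 groups. Freshly laid embryos were taken out of the egg at 0 h, within an hour of laying. Normoxia embryos had spent 36 h in sand at about 159 mmHg of oxygen, and hypoxia embryos had spent 36 h in sand inside sealed, nitrogen-filled bags at under 8 mmHg. Both incubated groups were held at the same range of temperature, and no group carried a genetic change. The sample numbers in the titles fall into 5 ranges of 50, each with 1 freshly laid and 1 hypoxia library and 3 of them with normoxia libraries, and the labels do not say what a range marks. They also do not give the mother or clutch of an egg or say whether embryos were pooled, so the p-values cover only the spread between these libraries.

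Hypoxia-inducible factors are pairs of an alpha and a beta subunit. While oxygen is present, prolyl hydroxylases of the EGLN family use it to mark the alpha subunit, the VHL protein recognises the mark and brings a ubiquitin ligase, and the alpha subunit is destroyed. HIF1AN, also called FIH, adds a hydroxyl group at another site, which keeps the alpha subunit from binding its co-activators. When oxygen falls, less of the alpha subunit is marked. The alpha subunit then gathers in the nucleus with its beta partner, and target genes are switched on. In mammals EGLN3, EGLN1 and HIF3A are among those targets. Sea turtle embryos pause their development in the low oxygen of the oviduct and resume it once the egg is laid. The stage of development may therefore differ between the groups along with oxygen, and the parts of stage and oxygen cannot be told apart here. The control of the alpha subunits acts on the protein, which RNA counts do not measure.

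EGLN3 and EGLN1, the prolyl hydroxylases, and HIF3A, an alpha subunit known in mammals for short forms that restrain the other alpha subunits, formed the same order in all comparisons. All 3 were highest after 36 h in hypoxia, intermediate in freshly laid embryos and lowest after 36 h in normoxia. With scaled counts the 3 groups did not overlap for any of them, though HIF3A in freshly laid and hypoxia embryos overlapped with total counts alone. Of the 9 genes, 4, 3 and 4 did not overlap in normoxia against freshly laid embryos, hypoxia against freshly laid embryos and hypoxia against normoxia, where 23.5%, 24% and 36.3% of all tested genes did not overlap. EPAS1, which encodes the alpha subunit HIF-2 alpha, was higher in both incubated groups than in freshly laid embryos. HIF1A, which encodes HIF-1 alpha, was lower in hypoxia than in normoxia, a call that some alternative fits lost. VHL was lower in hypoxia than in freshly laid embryos. ARNT, ARNT2 and HIF1AN did not pass the test in any comparison, though some alternative fits called each of them lower in hypoxia. A gene is called here when its adjusted p, from edgeR's quasi-likelihood test over the 16639 genes with enough counts, was under 0.05.

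Library totals ran from 14496102 to 21771745 counts in freshly laid embryos, from 18257476 to 26805841 in normoxia and from 17590559 to 20797573 in hypoxia. The 10 most counted genes held 8.56 to 11.4% of the counts in hypoxia, against 4.09 to 6.87% in the other libraries, and the scaling factors for library composition were 0.785 to 0.904 in hypoxia against 1.00 to 1.14 elsewhere. Without those factors the middle log2 fold change over the tested genes moved by -0.31 for hypoxia against freshly laid embryos and by -0.32 for hypoxia against normoxia. Changes in hypoxia are therefore relative to the composition scaling. All 12 early embryo markers found of 14 sought had counts in every library, and their summed level was 3348 to 4286 CPM in freshly laid embryos, 1355 to 2051 in normoxia and 1586 to 2272 in hypoxia. Of these 12 markers, 7 were lower and 0 higher in normoxia than in freshly laid embryos, and 6 lower and 0 higher in hypoxia. In hypoxia against normoxia 4 were higher and 1 lower. Among all tested genes 16.1% were lower and 15.2% higher, 19.4% lower and 20.9% higher, and 25.7% higher and 23.2% lower in that order. Levels are in CPM, a gene's counts divided by the scaled library total and brought to a common depth.

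Relative to freshly laid embryos, 1 of the 9 genes was higher in normoxia (EPAS1) and 3 were lower (EGLN3, EGLN1 and HIF3A). Among all 16639 genes tested in this comparison 31.2% were called, 15.2% higher and 16.1% lower. In hypoxia against freshly laid embryos 4 of the 9 were higher (EGLN3, EGLN1, EPAS1 and HIF3A) and 1 was lower (VHL), where 40.3% of all genes were called, 20.9% higher and 19.4% lower. In hypoxia against normoxia 3 were higher (EGLN3, EGLN1 and HIF3A) and 1 was lower (HIF1A), where 48.8% of all genes were called, 25.7% higher and 23.2% lower. Read against these shares, the number of called genes is not given as a result about the 9 genes, which differed from each other in the size of the change. The median log2 fold change of the 9 genes was -0.22, 0.23 and -0.16 in these 3 comparisons, against 0.00, 0.03 and 0.06 over all tested genes. The comparisons share groups, so they are not independent of each other. With total counts alone the split of all calls moved from 3474 higher and 3227 lower to 2088 and 5259 for hypoxia against freshly laid embryos, and from 4268 and 3855 to 2674 and 5600 for hypoxia against normoxia.

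**Figure D1:**
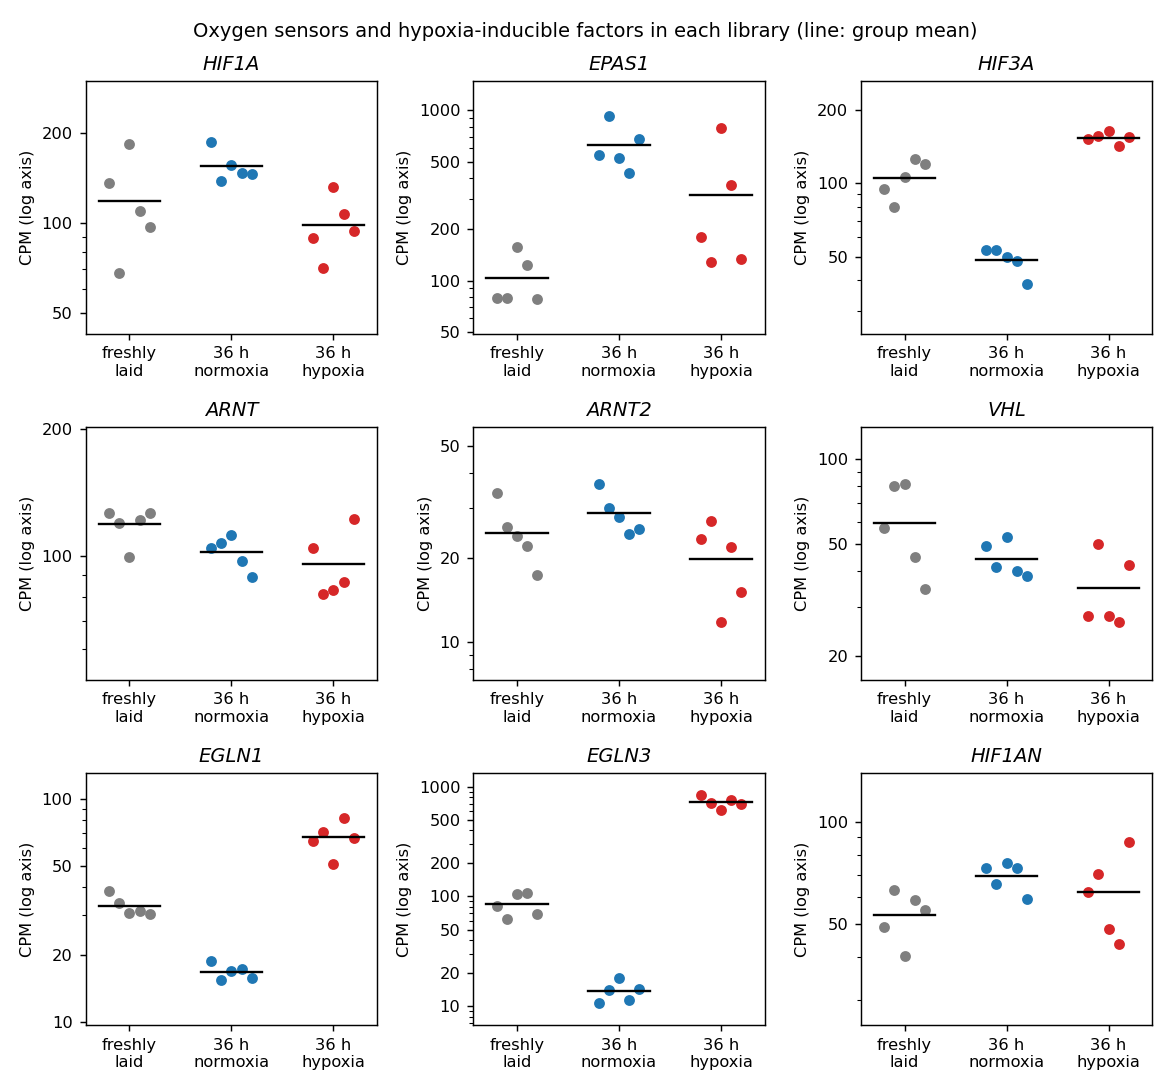
Level of each gene in CPM (log axis) in each of the 15 libraries, 1 point per library in replicate order and a line at the group mean. EGLN1, EGLN3 and HIF3A are separated in all 3 groups with the composition scaling, with hypoxia highest and normoxia lowest. EPAS1 spans 128 to 785 CPM within hypoxia.

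EGLN3, the prolyl hydroxylase whose gene responds most to hypoxia in mammalian cells, lies on the minus strand of sequence NC_051245.1 of the assembly rCheMyd1.pri, from 86234936 to 86272407, with 5951 bases of exon in 6 blocks. In replicate order from 1 to 5, its level in freshly laid embryos was 82.3, 62.9, 105, 107 and 69.6 CPM. Normoxia embryos had 10.7, 14, 17.9, 11.5 and 14.2 CPM. Hypoxia embryos had 839, 714, 614, 762 and 699.9 CPM. Every hypoxia library lay far above every freshly laid library, and every freshly laid library lay above every normoxia library. EGLN3 was 53.1-fold higher in hypoxia than in normoxia (log2 fold change 5.73 ± 0.21 SE, adjusted p = 1.28e-11). It fell by 2.64 on the log2 scale from freshly laid embryos to normoxia (SE 0.18, adjusted p = 2.19e-07), a level 6.24-fold lower. Against freshly laid embryos it was 8.50-fold higher in hypoxia (log2 fold change 3.09 ± 0.18 SE, adjusted p = 9.89e-09).

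EGLN1, the prolyl hydroxylase that in mammals sets HIF-1 alpha levels in normal oxygen, lies on the minus strand of NC_051243.1 from 127345740 to 127392242, with 4463 bases of exon in 5 blocks. Freshly laid embryos had 38.6, 34.0, 30.6, 31.4 and 30.3 CPM. In normoxia the levels were 18.8, 15.4, 16.8, 17.2 and 15.8 CPM, and in hypoxia 64.7, 71.1, 51.0, 81.6 and 66.9 CPM. All 5 normoxia libraries were below every freshly laid library, and all 5 hypoxia libraries were above. EGLN1 was 3.99-fold higher in hypoxia than in normoxia (log2 fold change 2.0 ± 0.14 SE, adjusted p = 1.52e-08). Between freshly laid embryos and the incubated groups it was 1.96-fold lower in normoxia (log2 -0.97 ± 0.14 SE, adjusted p = 0.000105) and 2.03-fold higher in hypoxia (log2 1.02 ± 0.14 SE, adjusted p = 2.47e-05). Every one of these changes of EGLN1 was smaller than that of EGLN3, and their 95% intervals do not overlap in any comparison.

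Per kilobase of exon, which allows levels of different genes to be compared, the balance of the 2 hydroxylases turned over between groups. The share of EGLN3 in the summed EGLN1 and EGLN3 level was 65.4 ± 6.31% before incubation, 37.7 ± 5.87% after normoxia and 89.0 ± 1.29% after hypoxia (SD, n = 5 in each group). The libraries ranged from 58.1 to 72%, from 30.0 to 44.4% and from 87.5 to 90.7%, with no overlap between groups. The sum itself was 21.7 ± 3.24 CPM per kb before incubation, 6.06 ± 0.411 after normoxia and 137 ± 15.4 after hypoxia. Per kilobase, EGLN1 was thus the more abundant of the 2 transcripts in every normoxia library and the less abundant in every other library. If counts are not divided by length, EGLN3 makes up 44.6% in normoxia and 91.5% in hypoxia. Its share is then 51.5% in normoxia replicate 3, so the order in normoxia depends on the division by length in that library. These shares are descriptions and were not tested.

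HIF1AN, the asparaginyl hydroxylase, lies on the plus strand of NC_051247.1 from 54010257 to 54023903, with 3470 bases of exon in 8 blocks. Freshly laid embryos had 49.0, 63.1, 40.4, 59.1 and 55 CPM. In normoxia the levels were 73.2, 65.8, 75.7, 73.3 and 59.4 CPM, and in hypoxia 62.2, 70.3, 48.5, 43.7 and 87.2 CPM. The hypoxia libraries spread on both sides of the normoxia libraries, and 4 of the 5 normoxia libraries lay above every freshly laid library. HIF1AN was not called in normoxia against freshly laid embryos (log2 fold change 0.38, 95% interval 0.01 to 0.75, adjusted p = 0.11). In hypoxia its log2 fold change was 0.23 against freshly laid embryos (interval -0.15 to 0.60, adjusted p = 0.329) and -0.16 against normoxia (interval -0.53 to 0.22, adjusted p = 0.488). The first of these 2 values turns negative (-0.10) with total counts alone. Against normoxia, total counts alone made it lower (log2 -0.50, adjusted p = 0.0219). Unlike the prolyl hydroxylases, HIF1AN had overlapping groups in every comparison.

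**Figure D2:**
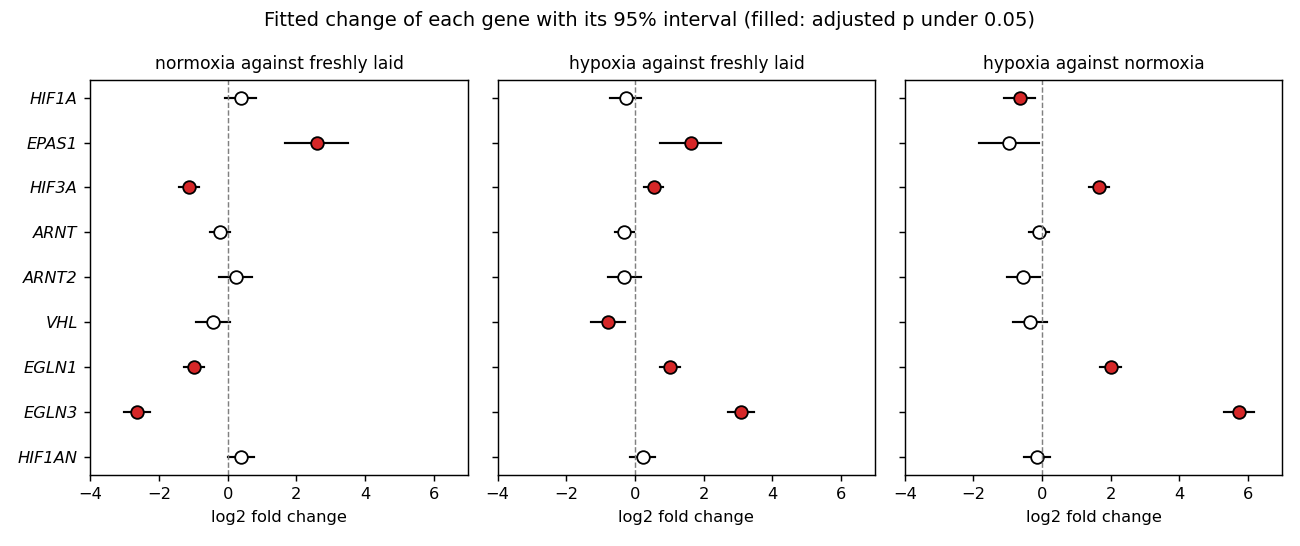
Fitted log2 fold change of each gene in the 3 comparisons, with its 95% interval as a line; filled points passed an adjusted p of 0.05. EGLN3, EGLN1 and HIF3A sit left of zero in normoxia against freshly laid embryos and right of zero in both comparisons of hypoxia.

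HIF1A lies on the minus strand of NC_051245.1 from 119449764 to 119492502, with 3813 bases of exon in 15 blocks. Its level was 136, 68.1, 184, 109.6 and 97.1 CPM in freshly laid embryos. Normoxia embryos had 187, 139, 156, 147 and 146 CPM, and hypoxia embryos 89.1, 70.6, 132, 107 and 94.2 CPM. All hypoxia libraries were below all normoxia libraries, whereas the freshly laid libraries spanned both groups. HIF1A was 1.57-fold lower in hypoxia than in normoxia (log2 -0.65 ± 0.22 SE, adjusted p = 0.0194). That call ends without normoxia replicate 1 (log2 -0.58, adjusted p = 0.0504), without hypoxia replicate 2 (-0.55, adjusted p = 0.0547) and with a covariate from the library's sample sheet number, added after seeing the data, (-0.605, adjusted p = 0.0503). Against freshly laid embryos HIF1A was not called in normoxia (log2 0.38, 95% interval -0.07 to 0.84) or in hypoxia (-0.27, interval -0.73 to 0.19). Without freshly laid replicate 3, the highest of its group, the value for normoxia was 0.59 with an adjusted p = 0.0345. With total counts alone HIF1A was lower in hypoxia than in freshly laid embryos (log2 -0.57, adjusted p = 0.0463).

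EPAS1 is best known in mammals for its part in the vascular endothelium and in the control of erythropoietin. The gene lies on the plus strand of NC_051243.1 from 170270531 to 170415410, with 5224 bases of exon in 16 blocks. Freshly laid embryos had 78.8, 78.8, 157, 124 and 78.0 CPM. Normoxia embryos had 549.6, 929, 523, 431 and 679.9 CPM, and hypoxia embryos 180.0, 128, 785, 365 and 135 CPM. All normoxia libraries lay above all freshly laid libraries, while hypoxia ranged from near the freshly laid level to within the range of normoxia. The coefficient of variation of EPAS1 was 87.3% in hypoxia, the largest of the 9 genes in any group, against 5.23% for HIF3A in the same libraries.

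EPAS1 was 6.03-fold higher in normoxia than in freshly laid embryos (log2 2.59 ± 0.44 SE, adjusted p = 0.000383). In hypoxia it was 3.09-fold higher than in freshly laid embryos (log2 1.63 ± 0.42 SE, adjusted p = 0.00547), with 3 of 5 hypoxia libraries above every freshly laid library. Hypoxia replicate 3 decides much of the latter value, which is 0.97 on the log2 scale without it and still called. Between the incubated groups EPAS1 was not called (log2 -0.97, 95% interval -1.84 to -0.09, adjusted p = 0.0635). It was called lower in hypoxia without hypoxia replicate 3 (log2 -1.62, adjusted p = 0.000566) and with limma-voom (-1.29, adjusted p = 0.00994). The covariate from the sample sheet number (-1.20, adjusted p = 0.0405) and total counts alone (-1.26, adjusted p = 0.0229) also gave that call.

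Embryos dissected from an egg can carry yolk tissue, so its marker genes were set beside EPAS1, and the 2 followed each other in some libraries and not in others. The summed level of 19 yolk markers found of 21 sought was 164 to 297 CPM in freshly laid embryos, 280.1 to 1723 in normoxia and 299 to 1564 in hypoxia. In hypoxia, replicates 1 to 5 had 726, 299, 1564, 631 and 312 CPM of these markers. Replicate 3 was highest and replicates 2 and 5 lowest in both, while replicate 1 had more marker counts than replicate 4 and less EPAS1. Normoxia replicate 2, highest in EPAS1 there, also had the highest marker sum, 1723 CPM, while replicate 1 had more EPAS1 than replicate 3 with 354 against 907 CPM of markers. Normoxia replicates 1 and 4 had 354 and 280.1 CPM of markers with 549.6 and 431 CPM of EPAS1. Hypoxia replicates 2 and 5, with 299 and 312 CPM of markers, had 128 and 135 CPM of EPAS1. At the highest marker sums of their groups, normoxia replicate 2 and hypoxia replicate 3 had 929 and 785 CPM of EPAS1. A sum does not show which markers make it up. FABP2 and AHSG, markers of gut and liver, had no count in any freshly laid library, and AHSG had none in hypoxia. In normoxia AHSG had counts only in replicate 5, at 0.0954 CPM, so it was near absent from every group. Markers of blood and endothelium (12 found of 14) summed to 29.8 to 197 CPM in freshly laid embryos, 139 to 349 in normoxia and 59.6 to 294 in hypoxia, again with replicate 3 highest in hypoxia, and none of the 12 was at 0 throughout a group. Of 15 yolk markers tested, 11 were higher and 0 lower in normoxia than in freshly laid embryos, 8 higher and 0 lower in hypoxia, and 2 higher and 4 lower in hypoxia than in normoxia. With total counts alone the comparisons of hypoxia gave 4 yolk markers higher and 1 lower, and 0 higher and 6 lower. Without hypoxia replicate 3 they gave 5 higher and 1 lower, and 0 higher and 7 lower. Of 11 blood and endothelium markers tested, 2 were higher and 0 lower, 4 higher and 1 lower, and 3 higher and 1 lower in the same order, the last becoming 1 higher and 2 lower without that library. Of all tested genes 15.2, 20.9 and 25.7% were called higher and 16.1, 19.4 and 23.2% lower in that order. The part of these tissues in the EPAS1 values was not tested. In RNA of an entire sample, fewer cells of a type and less RNA per cell cannot be told apart.

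**Figure D3:**
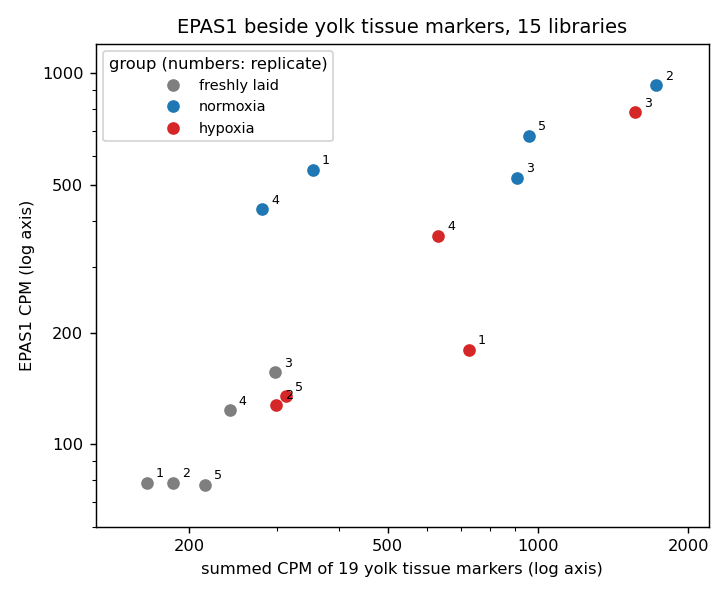
EPAS1 level in CPM against the summed CPM of 19 yolk tissue markers in each of the 15 libraries (both axes log), coloured by group and numbered by replicate. Hypoxia replicate 3 lies beside normoxia replicate 2 at the upper right, and hypoxia replicates 2 and 5 lie near the freshly laid libraries.

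HIF3A lies on the plus strand of NC_051263.1 from 4559126 to 4580853, with 4926 bases of exon in 16 blocks. Freshly laid embryos had 94.9, 80.3, 106, 126 and 120.4 CPM. Normoxia embryos had 53.0, 53.2, 50.1, 47.8 and 38.7 CPM, and hypoxia embryos 152, 157, 164, 142 and 154 CPM. No library of any group fell within the range of another group, and the hypoxia libraries were the most alike. HIF3A was 2.17-fold lower in normoxia than in freshly laid embryos (log2 -1.12 ± 0.14 SE, adjusted p = 2.55e-05) and 3.16-fold higher in hypoxia than in normoxia (log2 1.66 ± 0.14 SE, adjusted p = 6.91e-08). Against freshly laid embryos it was 1.46-fold higher in hypoxia (log2 0.54 ± 0.13 SE, adjusted p = 0.00397), a call that ends with total counts alone (log2 0.23, adjusted p = 0.187). The counts do not tell the forms of HIF3A apart.

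Among the 3 alpha subunits, each per kilobase of exon, HIF1A was highest in every freshly laid library. HIF1A made up 42.3 ± 6.79% of their summed level in freshly laid embryos, EPAS1 27.1 ± 4.45% and HIF3A 30.5 ± 6.15% (SD, n = 5). That order depends on the division by length. Without it HIF1A held 30.0 and 30.6% in freshly laid replicates 2 and 4, the lowest of the 3 genes there. In normoxia EPAS1 made up 69.2 ± 6.97%, HIF1A 24.8 ± 5.82% and HIF3A 5.99 ± 1.29%. In hypoxia the shares were 45.4 ± 16.1% for EPAS1, 23.9 ± 5.35% for HIF1A and 30.7 ± 11.4% for HIF3A. EPAS1 held 63.1 to 79.0% in every normoxia library and 21.6 to 30.6% in every freshly laid library, and in hypoxia it ran from 31.5 to 68.9%, highest in replicate 3. HIF3A held at most 7.42% in normoxia and at least 15.2% in hypoxia. The summed level was 72.3 ± 18.6 CPM per kb before incubation, 170 ± 35.3 after normoxia and 118 ± 59.5 after hypoxia.

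**Figure D4:**
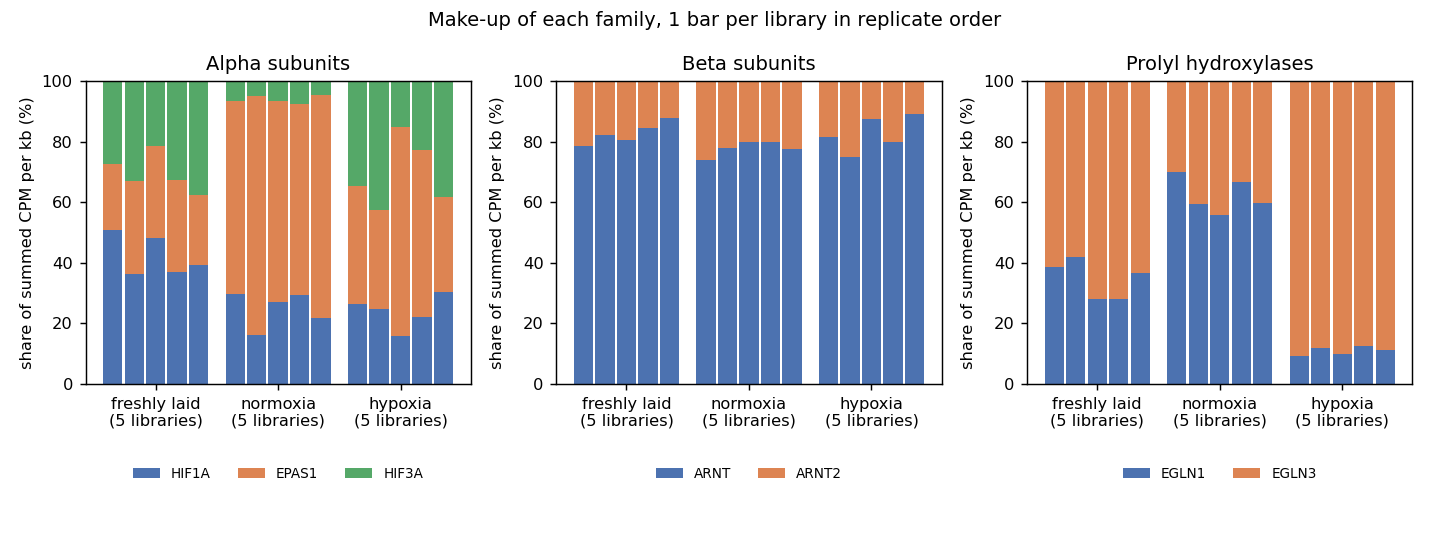
Share of each gene in the summed level of its family in CPM per kilobase of exon (%), 1 stacked bar per library in replicate order. EPAS1 takes most of the alpha subunit level in normoxia, and EGLN3 takes 87.5 to 90.7% of the summed EGLN1 and EGLN3 level in hypoxia.

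ARNT and ARNT2 encode the beta subunits, ARNT in most tissues and ARNT2 mainly in the nervous system of mammals. ARNT lies on the minus strand of NC_051261.1 from 7752234 to 7800671 (7095 bases of exon in 22 blocks) and ARNT2 on the plus strand of NC_051250.1 from 16119965 to 16257108 (7037 bases in 20 blocks). ARNT ranged from 99.3 to 127 CPM in freshly laid embryos, from 89.3 to 112 in normoxia and from 81.3 to 123 in hypoxia. ARNT2 ranged from 17.4 to 34.1, from 24.2 to 36.7 and from 11.7 to 27.0 CPM. The ranges of all 3 groups overlapped for both genes. The log2 fold change of ARNT was -0.22 in normoxia (95% interval -0.50 to 0.06) and -0.31 in hypoxia (interval -0.59 to -0.03, adjusted p = 0.0712) against freshly laid embryos, and -0.09 between the incubated groups (interval -0.37 to 0.19). The value of hypoxia against freshly laid embryos was called without freshly laid replicate 3 (log2 -0.37, adjusted p = 0.0433) and without hypoxia replicate 5 (-0.42, adjusted p = 0.0151).

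ARNT2 had a log2 fold change of -0.54 in hypoxia against normoxia (interval -1.03 to -0.06, adjusted p = 0.0572). With DESeq2 (-0.57, adjusted p = 0.0373) and limma-voom (-0.57, adjusted p = 0.0403) it was called lower, as it was without freshly laid replicate 1 (-0.55, adjusted p = 0.0457), freshly laid replicate 5 (-0.55, adjusted p = 0.0493) or hypoxia replicate 2 (-0.68, adjusted p = 0.027). Against freshly laid embryos its values were 0.23 in normoxia (interval -0.25 to 0.71) and -0.31 in hypoxia (interval -0.79 to 0.17). Total counts alone made both beta subunits lower in hypoxia against either group, with log2 fold changes of -0.64 and -0.43 for ARNT and -0.63 and -0.87 for ARNT2. Per kilobase, ARNT held 82.7 ± 3.61% of the beta subunit level before incubation, 77.8 ± 2.49% after normoxia and 82.6 ± 5.77% after hypoxia (SD, n = 5 in each group).

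VHL, the subunit that recognises hydroxylated alpha subunits, lies on the plus strand of NC_051247.1 from 18320285 to 18325887, with 3454 bases of exon in 3 blocks. Freshly laid embryos had 57.0, 80.3, 81.3, 44.9 and 34.5 CPM. Normoxia embryos had 49.0, 41.5, 53.1, 40.1 and 38.4 CPM, and hypoxia embryos 27.8, 50.02, 27.7, 26.5 and 42.2 CPM. The groups overlapped, with 3 of 5 hypoxia libraries below all libraries of the other groups. VHL was 1.71-fold lower in hypoxia than in freshly laid embryos (log2 -0.77 ± 0.24 SE, adjusted p = 0.0152). It was not called in normoxia against freshly laid embryos (log2 -0.42, 95% interval -0.92 to 0.07, adjusted p = 0.182) or in hypoxia against normoxia (-0.35, interval -0.85 to 0.15, adjusted p = 0.231), although total counts alone made it lower there (-0.69, adjusted p = 0.0256).

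Ordered by level per kilobase, the 9 genes were closest together in freshly laid embryos, where each of the first 6 overlapped the next over its libraries. That order ran from HIF1A (31.2 ± 11.5 CPM per kb) through HIF3A (21.4), EPAS1 (19.8), VHL (17.3), ARNT (16.7) and HIF1AN (15.4) to EGLN3 (14.3), with EGLN1 (7.39) and ARNT2 (3.50) below without overlap. In normoxia EPAS1 (119 ± 37.0) and HIF1A (40.6 ± 4.94) stood clear of each other and of the rest, and EGLN3 (2.30 ± 0.474) was lowest, below EGLN1 (3.76 ± 0.294) in every library. HIF1AN (20), ARNT (14.4), VHL (12.9), HIF3A (9.86) and ARNT2 (4.10) lay between, where ARNT overlapped VHL and ARNT2 overlapped EGLN1. In hypoxia EGLN3 was highest (122 ± 13.9) and overlapped EPAS1 (61.0 ± 53.2) through 1 library of EPAS1, replicate 3. HIF3A (31.2), HIF1A (25.9), HIF1AN (18), EGLN1 (15), ARNT (13.5) and VHL (10.1) followed, each overlapping the next, and ARNT2 (2.81) was lowest. EGLN3 thus went from the bottom of the order in normoxia to the top in hypoxia.

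Among 32 canonical targets of the factors in mammals, EGLN3 included, 31 were tested. This list and those below were chosen with earlier results of these data known. In normoxia against freshly laid embryos 17 fell and 1 rose (PFKFB4), with a median log2 fold change of -0.67. With total counts alone 16 fell and 0 rose there, as PFKFB4 was no longer called (adjusted p = 0.0593). In hypoxia against freshly laid embryos 25 rose and 1 fell (the hexokinase HK2, median 2.21), and in hypoxia against normoxia 27 rose and 2 fell (PFKFB4 and the transferrin receptor TFRC, median 3.06). Over all tested genes 15.2, 20.9 and 25.7% rose and 16.1, 19.4 and 23.2% fell in these comparisons. Total counts alone left 24 targets higher and 5 lower, and 24 higher and 2 lower, in the comparisons of hypoxia. Together with EGLN3, the histone demethylase KDM3A fell from 177 ± 16.3 CPM in freshly laid embryos to 50.1 ± 9.46 in normoxia and stood at 736 ± 110.0 in hypoxia. SLC2A1, a glucose transporter, fell from 671 ± 102 to 159 ± 33.2 CPM in normoxia. STC2 rose from 3.36 ± 1.26 to 138 ± 24.5 CPM and the repressor MXI1 from 33.8 ± 5.49 to 156 ± 20.7 CPM in hypoxia against freshly laid embryos. LDHA, lactate dehydrogenase A, had 188 ± 49.5 CPM in normoxia and 5643 ± 1578 in hypoxia. Of the 3 members that are known targets, EGLN3 had the largest rise in hypoxia against normoxia, and EGLN1 and HIF3A rose less than the list median.

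Other enzymes that use oxygen as a substrate moved with EGLN1 and EGLN3 only in part. Of 35 tested, 14 fell and 3 rose in normoxia against freshly laid embryos (median log2 fold change -0.25), 17 rose and 3 fell in hypoxia against freshly laid embryos (0.20), and 16 rose and 5 fell in hypoxia against normoxia (0.34). The middle comparison depends on the scaling: with total counts alone 12 were higher and 11 lower, with a median of -0.13, and the last gave 15 higher and 10 lower (0.03). The shares of all tested genes were 15.2, 20.9 and 25.7% rising and 16.1, 19.4 and 23.2% falling. KDM3A, P4HA1 and P4HA2 are also in the list of targets. The histone demethylase KDM4B fell from 68.7 ± 11.9 to 31.4 ± 2.75 CPM in normoxia and stood at 261 ± 29.3 in hypoxia. TET3, which oxidises methylated cytosine, rose from 22.6 ± 3.93 to 169 ± 31.5 CPM in hypoxia against freshly laid embryos, and P4HA1, a collagen prolyl hydroxylase, had 65.4 ± 5.62 CPM in normoxia and 907 ± 257 in hypoxia. CDO1, a cysteine dioxygenase, rose in normoxia, from 1.95 ± 0.726 to 22.4 ± 9.01 CPM.

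Genes of the VHL ligase and of factor stability went both ways. Of 16 tested, 4 rose and 2 fell in normoxia against freshly laid embryos, 6 rose and 5 fell in hypoxia against freshly laid embryos, and 5 rose and 8 fell in hypoxia against normoxia, with medians of -0.10, 0.15 and -0.10. The second of these medians turns to -0.15 with total counts alone. Among all tested genes 15.2, 20.9 and 25.7% rose and 16.1, 19.4 and 23.2% fell. CUL2, the scaffold of the VHL ligase, rose from 33.0 ± 3.77 to 48.5 ± 2.66 CPM in normoxia and was lower than in freshly laid embryos in hypoxia, at 18.7 ± 2.48 CPM. RBX1, its ring subunit, rose from 69.7 ± 14.6 to 103 ± 15 CPM in normoxia, and the chaperone HSP90AA1 from 209 ± 43.6 to 482 ± 103 CPM. SIAH2, a ligase that acts on prolyl hydroxylases in mammals, had 22.6 ± 2.94 CPM in freshly laid embryos and 71.5 ± 25.2 in hypoxia. OS9 rose from 109 ± 24.4 to 377 ± 192 CPM in hypoxia against freshly laid embryos, and HSP90AB1 had 2648 ± 360.3 CPM in normoxia and 5933 ± 274 in hypoxia.

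Of 10 tested co-activators and their competitors, 4 fell and 2 rose in normoxia against freshly laid embryos, 6 rose and 2 fell in hypoxia against freshly laid embryos, and 8 rose and 2 fell in hypoxia against normoxia. The medians were -0.47, 0.60 and 1.03, and total counts alone gave 4 higher and 2 lower in the second comparison. For comparison, 15.2, 20.9 and 25.7% of all tested genes rose and 16.1, 19.4 and 23.2% fell. EP300, the acetyltransferase that binds the alpha subunits, fell from 73.1 ± 10.7 to 34.9 ± 7.28 CPM in normoxia and was at 107 ± 16.6 in hypoxia. NCOA3 (39.4 ± 5.96 to 23.4 ± 4.83 CPM) and TRIM28 (748 ± 176 to 365 ± 47.5 CPM) also fell in normoxia. CITED2, which competes with the alpha subunits for that binding, rose from 53.4 ± 10.9 to 140.3 ± 18.5 CPM in hypoxia against freshly laid embryos. CITED1 and CDK8, a kinase of the mediator complex, were higher in normoxia and lower in hypoxia than in freshly laid embryos, with CITED1 at 6.99 ± 2.40 CPM before incubation, 14.7 ± 1.5 after normoxia and 1.74 ± 0.304 after hypoxia.

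Other factors of the same bHLH-PAS family, listed together with the PER genes, were mostly low. The highest was ARNTL2, at 156, 81.7 and 86.2 CPM in freshly laid, normoxia and hypoxia embryos. It was called lower in both incubated groups than in freshly laid embryos. Of 12 tested, 2 rose and 3 fell in each comparison with freshly laid embryos, and 2 rose and 1 fell in hypoxia against normoxia, with medians of -0.10, -0.19 and 0.14. The last median turns to -0.19 with total counts alone. Over all tested genes 15.2, 20.9 and 25.7% rose and 16.1, 19.4 and 23.2% fell in the same order. Read against these shares, the counts are not given as a result about this list. The clock gene PER1 rose from 11.6 ± 3.29 CPM in freshly laid embryos to 30.3 ± 8.66 in hypoxia. CLOCK had 7.44 ± 2.56 CPM in normoxia and 1.74 ± 0.546 in hypoxia. NPAS3 fell from 8.19 ± 2.24 to 2.92 ± 0.349 CPM in normoxia, and NPAS1 from 2.64 ± 0.553 to 0.755 ± 0.386 CPM. SIM1, with almost no counts in freshly laid embryos (0.0575 ± 0.105 CPM), stood at 1.68 ± 0.606 CPM in normoxia and 0.488 ± 0.521 in hypoxia. In hypoxia its SD exceeded its mean.

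**Figure D5:**
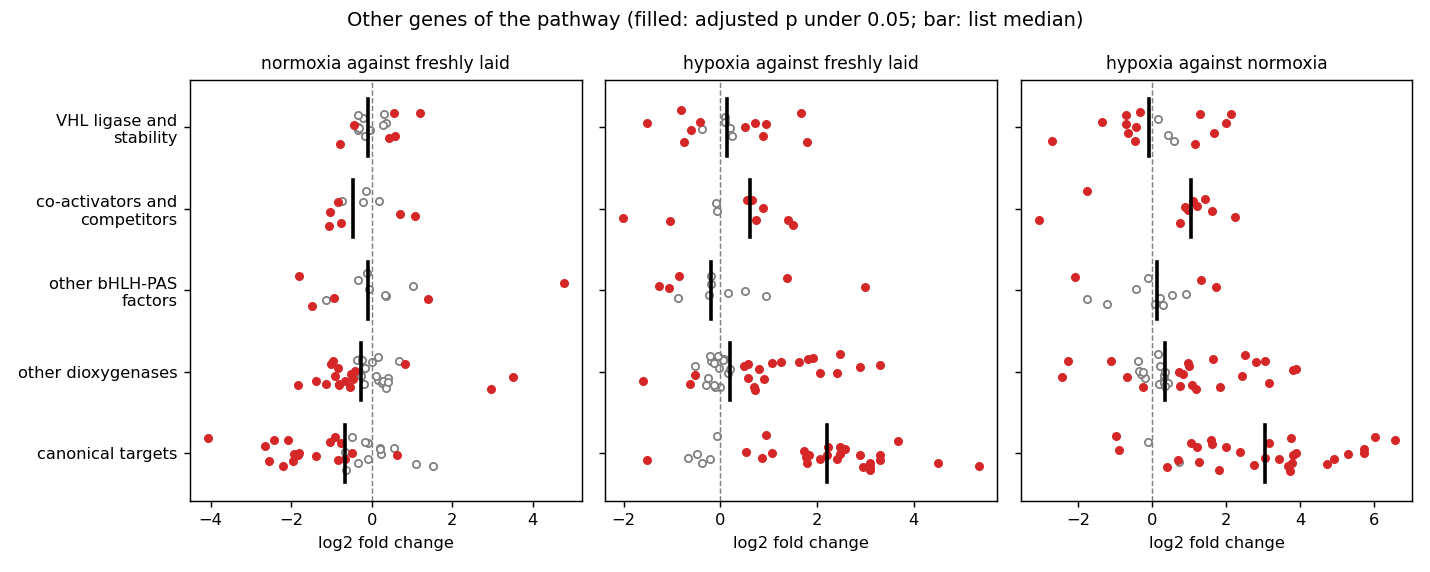
Log2 fold change of each tested gene of 5 lists in the 3 comparisons; filled points passed an adjusted p of 0.05, and the bar is the list median. The targets have a median of -0.67, 2.21 and 3.06, and the genes of the VHL ligase list lie on both sides of zero in each comparison.

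To find genes with the most similar pattern, log2 CPM of each gene was centred on its mean over the 15 libraries, and the root mean square difference from each called member was taken over 12683 other tested genes with a symbol. EGLN3 was closest to DDIT4 (0.35 log2 units), LDHA (0.45) and CA9 (0.58), where the SD of EGLN3 itself was 2.44. DDIT4 had 260.3, 48.4 and 2559 CPM in freshly laid, normoxia and hypoxia embryos. For EGLN1 (SD 0.85) the closest genes were KTN1 (0.16), TBL1X (0.18) and TRERF1 (0.18). HIF3A (SD 0.74) was closest to EP300 (0.19), SPEN (0.19) and PTPRU (0.20), with EP300 a member of the co-activator list above. The genes closest to EPAS1 (SD 1.3) were GATM (0.44), CXCR4 (0.44) and PRSS12 (0.45). HIF1A (SD 0.45) was closest to EFNB2 (0.20), HSD17B4 (0.24) and SYK (0.26), and VHL (SD 0.49) to CLIP4 (0.24), LMBRD2 (0.25) and PCNX2 (0.25). These differences describe likeness over 15 libraries in 3 groups and carry no test.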

How the data were processed

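RNA was sequenced from 15 embryo samples in 3 groups of 5. The deposited values are raw read counts per gene. STAR served for mapping and featureCounts for counting, per the submitters' processing notes. The file headers name featureCounts 1.6.2, strand setting 2, a minimum mapping quality of 10 and the exons of rCheMyd1.pri, with duplicates marked and still counted. Gene length is the deposited exon length. Another 3 columns of counts fit none of the samples and stayed unused. An entry without a gene name, 0.0553 to 0.334% of a library's counts, stayed out of totals and tests. No member's exons overlap those of another gene in the file.

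The analysis ran in R 4.3.3. edgeR 4.0.16 was used with filterByExpr, TMM scaling and a quasi-likelihood fit with a mean per group over all 15 libraries, and p was adjusted by Benjamini and Hochberg over 16639 genes. The SE is the fitted change divided by the root of F. Alternatives were other scalings and filters, DESeq2 1.42.0, limma 3.58.1 (voom), fits of 10 libraries, summed neighbouring normoxia libraries and each library left out. A covariate from the sample sheet number in the column headers and a block for the range of the sample number in the titles were added after seeing the data. The covariate was a split of the libraries by a sample sheet number over 11. The steps were also run on simulated data with few changed genes, which does not test the composition scaling.

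The members and lists were chosen with earlier results of these data known. Genes named outside the members are up to 3 called genes of each list and comparison with the smallest adjusted p, and the 3 closest profiles of each called member. Marker lists are given by sums and counts. PFKFB4, HK2, TFRC, FABP2, AHSG and ARNTL2 were named after their values were seen. Depth ran from 14496102 to 26805841 counts, and each member had at least 186 counts in every library.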

Additional observations from a re-analysis of the deposited data

Results flagged for a closer look

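In ARNT, freshly laid replicate 3 stood apart from its group at 99.3 CPM, where the nearest of the other 4 libraries had 119.7 CPM. The gap was 0.750 of the range of the group. Of 27 sets of 5 libraries examined (9 genes in 3 groups), this was the 1 that stood out so far, and chance flags about 1 in 20.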

How the results depend on the processing

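Of 675 log2 fold changes of the members refitted under the alternatives, 649 kept their direction and their side of the threshold, 4 lost their call, 21 gained one and 1 reversed (HIF1AN in hypoxia against freshly laid embryos, -0.10 with total counts alone). The calls of EGLN3 and EGLN1 held in every comparison and alternative. In hypoxia against freshly laid embryos 4 members were lower with total counts alone, and 1 to 2 with a library left out. In hypoxia against normoxia 6 were lower with total counts alone, 2 with DESeq2, 3 with limma-voom, and 0 to 2 with a library left out. Normoxia against freshly laid embryos had 1 to 2 higher with a library left out. Summing the neighbouring normoxia libraries gave 2987 called genes in that comparison against 5193, which then rested on 3 normoxia samples. The cause of these shifts was not tested. A fit with the range of 50 of the sample number as a replicate block was added after seeing the data. In hypoxia against normoxia it gave 3 members lower, with EPAS1 (log2 -1.13, adjusted p = 0.0104 by edgeR) and ARNT2 (-0.78, adjusted p = 0.00589) called beside HIF1A, and it changed no other member's call. It called 4203 genes in normoxia against freshly laid embryos, 6946 in hypoxia against freshly laid embryos and 7730 in hypoxia against normoxia. Over all tested genes, deviations from the group means correlated at 0.04 to 0.32 in the 15 pairs of libraries of 1 range, over 0.1 in 10 of them, and at -0.29 to 0.13 in the 60 other pairs. For 13 of 15 libraries the closest library of another group lay in the same range, which is a hint from the data and not part of the labels. Total depth limits none of the members, each with at least 186 counts per library.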
